A study of Mus musculus with 8 samples.

Results

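The 7 genes described here, Gfap, S100b, Sox10, Fabp7, Entpd2, Erbb3 and Cdh19, are commonly used to mark enteric glia. They were taken by name from a table of 55414 mouse genes, and each matched 1 entry. The libraries came from sorted cells of the colon of mice aged 4 weeks, labelled as enteric neurons. There were 4 libraries labelled Emb knockdown and 4 labelled WT, from 4 mice of each genotype. Emb encodes embigin, a membrane glycoprotein that partners with monocarboxylate transporters, and the series title asks how its knockdown affects enteric neuronal development. The sources used here do not say how the knockdown was made, in which cells it acts or which mouse strain was used. Cells of both genotypes were dissociated with enzymes, stained for CD24 and CD56 and sorted into tubes of about 250 cells. Their RNA was amplified with a Smart-seq kit, made for very small inputs. Whether a tube came from a single mouse is not stated, and the p-values below rest on the spread between these libraries, which may in part be technical.

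Enteric glia surround the neurons and nerve fibres of the gut wall. They descend from the neural crest, like enteric neurons, and share many transcripts with Schwann cells, the glia of peripheral nerves. They are known for supporting neurons, for breaking down and sensing extracellular nucleotides, and for turning reactive in inflammation. CD56, the product of Ncam1, is found on peripheral glia as well as on neurons.

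The libraries differed in depth and make-up between the genotypes. Total counts ranged from 2024372 to 2712754 in Emb knockdown and from 698930 to 954191 in WT. Ribosomal RNA genes, here with the mitochondrial ones included, took 31.2% to 45.1% of the counts in Emb knockdown and 5.29% to 14.4% in WT. Counts outside ribosomal RNA were 1331003 to 1576699 in Emb knockdown and 598197 to 856155 in WT. Emb itself had 5, 25, 3 and 5 counts in Emb knockdown replicates 1 to 4 and 4, 6, 22 and 16 counts in WT replicates 1 to 4. No decrease was detected (log2 fold change -1.24 ± 0.82, SE; edgeR adjusted p = 0.529). Emb lay at 0.189 to 1.99 times the receptor-gene background explained below in Emb knockdown and at 0.435 to 2.15 times in WT. It was thus not clear of stray reads, and its counts cannot show whether the knockdown lowered it. The median gene of the neuron list of 22 genes also lay close to this background. It stood at 1.68 to 2.48 times the background in Emb knockdown and at 0.918 to 1.88 times in WT. Single genes differed from the median. Elavl3 stood at 8.79 to 16.8 times in Emb knockdown and 14.8 to 25.9 times in WT, and Syt1 at 13.7 to 16.8 and 14.1 to 23.3 times. Rbfox3 stood at 1.70 to 9.22 times in Emb knockdown and 1.16 to 2.88 times in WT. None of the 22 genes was at 0 counts in either genotype.

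The stretches upstream of 3 markers are shown because S100b and Entpd2 had the largest fitted differences between the genotypes, while Gfap was the marker counted well above background in every library. Each is the 250 bases before the annotated start site, 5′ to 3′ on the strand of the gene, from RefSeq on GRCm38.p6. For Gfap the RefSeq start lies 3712 bases inside the gene span of GENCODE given with its values, so that stretch is upstream of the RefSeq start only. Capitals mark matches to the binding motif of SOX factors, the family of the member Sox10, searched on both strands in 4 spellings. These were ACAAAG as the first of them, ACAATG with the fifth letter changed, and for each a form that starts with T in place of A, written TCAAAG for one of these and TCAATG for the other one.
Gfap, chr11:102897201-102897450, minus strand: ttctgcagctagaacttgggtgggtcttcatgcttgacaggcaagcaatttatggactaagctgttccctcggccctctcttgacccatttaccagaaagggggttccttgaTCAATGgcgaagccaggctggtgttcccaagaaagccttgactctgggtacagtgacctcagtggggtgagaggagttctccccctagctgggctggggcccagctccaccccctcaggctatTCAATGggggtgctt
S100b, chr10:76253586-76253835, plus strand: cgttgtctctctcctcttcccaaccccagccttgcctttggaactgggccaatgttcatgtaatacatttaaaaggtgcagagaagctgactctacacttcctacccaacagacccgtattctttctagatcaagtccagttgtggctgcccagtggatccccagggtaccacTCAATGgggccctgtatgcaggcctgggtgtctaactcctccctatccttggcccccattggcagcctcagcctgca
Entpd2, chr2:25395624-25395873, plus strand: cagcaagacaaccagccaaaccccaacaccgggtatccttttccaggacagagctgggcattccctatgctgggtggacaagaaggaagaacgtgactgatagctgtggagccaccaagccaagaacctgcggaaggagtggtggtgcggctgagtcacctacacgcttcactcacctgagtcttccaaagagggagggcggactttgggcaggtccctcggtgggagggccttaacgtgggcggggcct
The Gfap stretch held TCAATG at 138 and at 15 bases before the start site, the S100b stretch held it at 77 bases, and the Entpd2 stretch held none of the 4 spellings. Of 32851 promoters cut to the same length, 12929 (39.4%) held at least 1 match. These matches are letters in a sequence and say nothing of binding. Of the 7 markers, 4 had an entry in the promoter table, and the Fabp7 stretch, not shown, held no match either.

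Values are normalised counts (CPM) scaled by the trimmed mean of M-values (TMM), a factor that aligns the bulk of genes between libraries. Gfap was the only marker with enough counts in all 8 libraries for the filter on low counts. The filter asked for 4 or more libraries at 6.71 CPM of the library total. Fabp7 failed it. Of the other 6 markers, S100b passed with 3 Emb knockdown libraries and 1 WT library, Entpd2 with 4 and 2, and Sox10, Erbb3 and Cdh19 with 4 and 3 each. Members that pass mainly through the genotype in which they are high tend to come out higher there, so the number of tested markers on the higher side carries no weight of its own.

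**Figure D1:**
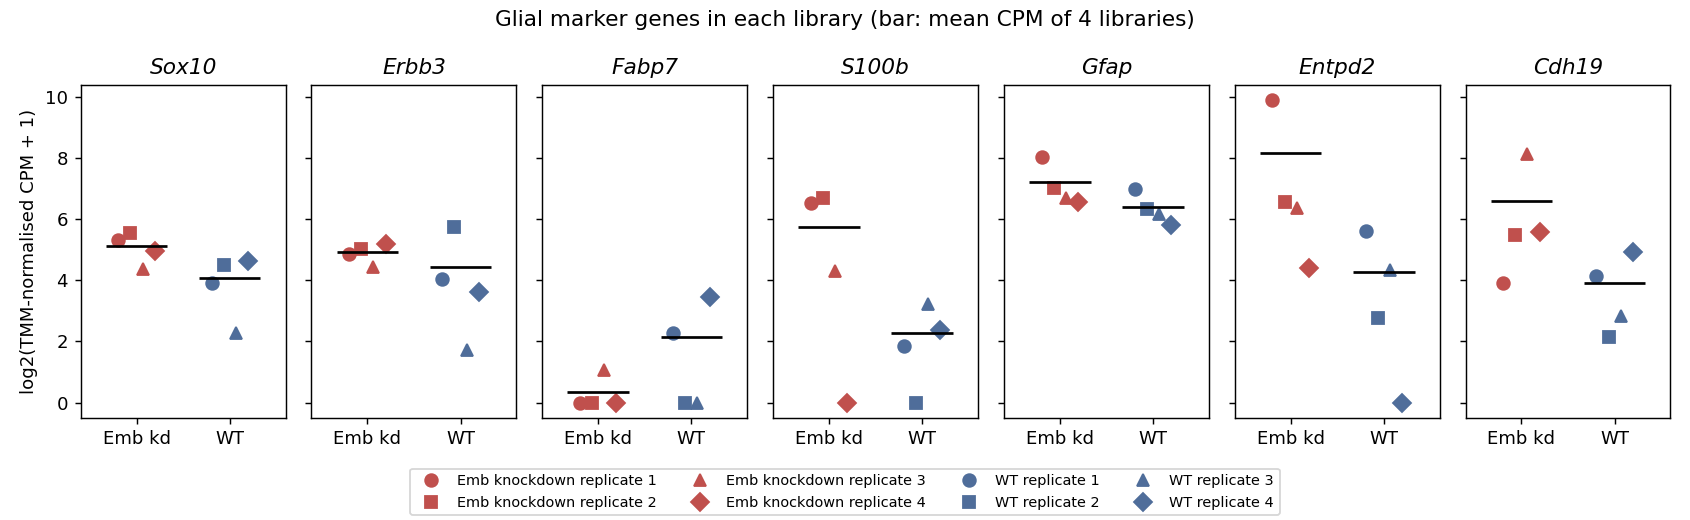
Each panel plots 1 marker as log2(TMM-normalised CPM + 1), with 4 Emb knockdown libraries on the left, 4 WT libraries on the right, and a bar at the mean CPM of the group. Values of the genotypes overlap in every panel, Entpd2 stands apart in Emb knockdown replicate 1 at 949 CPM and Cdh19 in Emb knockdown replicate 3 at 276 CPM.

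Sox10, the HMG-box transcription factor that neural crest cells need to become glia, was counted in every library. Sox10 (ENSMUSG00000033006, GRCm38 chromosome 15, 79154908 to 79165240, minus strand) had 38.6, 45.6, 19.5 and 30.1 CPM in Emb knockdown replicates 1 to 4 and 14.2, 21.8, 3.80 and 23.9 CPM in WT replicates 1 to 4. The Emb knockdown libraries 1, 2 and 4 lay above every WT library, and replicate 3 lay within the WT range. The means were 33.4 ± 11.3 CPM in Emb knockdown and 15.9 ± 9.10 CPM in WT (SD, n = 4 each). The fitted log2 fold change of Sox10 was 1.08 ± 0.65 (SE), with a 95% interval of -0.35 to 2.51, and was not called (edgeR adjusted p = 0.492).

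Erbb3, the receptor for neuregulins that signals together with ERBB2 and on which Schwann cells depend, was the most even marker within Emb knockdown. Erbb3 (ENSMUSG00000018166, chromosome 10, 128567523 to 128589652, minus strand) had 27.98, 31.8, 20.5 and 35.7 CPM in Emb knockdown replicates 1 to 4 and 15.4, 52.9, 2.28 and 11.2 CPM in WT replicates 1 to 4. All 4 Emb knockdown values lay inside the range of the WT values, whose highest, in replicate 2, exceeded every other library. The log2 fold change of Erbb3 was 0.51 ± 0.78 (SE; 95% interval -1.21 to 2.22; edgeR adjusted p = 0.824). It was 1.67 without WT replicate 2, 0.18 without WT replicate 3, and turned to -0.14 with library totals in place of TMM.

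Fabp7, the brain lipid-binding protein of glial precursors, had the fewest counts of the 7 in each genotype. Fabp7 (ENSMUSG00000019874, chromosome 10, 57784881 to 57788450, plus strand) had 0, 0, 2 and 0 counts in Emb knockdown replicates 1 to 4 and 3, 0, 0 and 7 counts in WT replicates 1 to 4. In a library without a count, 3 counts would correspond to 1.59 to 2.00 CPM in the Emb knockdown libraries and to 2.28 to 3.45 CPM in the WT libraries. Scaled to the library sizes with their TMM factors, the 2 counts of Emb knockdown against the 10 of WT gave a ratio of 0.108 (exact 95% Clopper-Pearson counting interval 0.0115 to 0.504). The interval covers counting error only, because amplification copies reads and no molecular identifiers were used to remove the copies. WT replicate 4 held 70.0% of the WT counts of Fabp7, so the spread between libraries is wider than the counting interval allows for. Without a filter on low counts its log2 fold change was -2.95 ± 1.77 (SE; edgeR adjusted p = 0.493).

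S100b, a small calcium-binding protein made and released by glia, was abundant in only some Emb knockdown libraries. S100b (ENSMUSG00000033208, chromosome 10, 76253853 to 76261159, plus strand) had 136, 193, 35 and 0 counts in Emb knockdown replicates 1 to 4 and 2, 0, 11 and 3 counts in WT replicates 1 to 4. Emb knockdown replicates 1, 2 and 3 lay above every WT library, whereas Emb knockdown replicate 4 had none, as did WT replicate 2. In CPM these were 90.6, 102, 18.9 and 0 in Emb knockdown and 2.57, 0, 8.37 and 4.22 in WT. For S100b the fitted log2 difference was 3.72 ± 1.36 (SE), with a 95% interval of 0.74 to 6.69, and did not pass (unadjusted p = 0.0187; edgeR adjusted p = 0.312). With limma voom, which weights each value on a log scale, it was 2.24 ± 2.95 (adjusted p = 0.830). After counts were thinned to an equal depth outside ribosomal RNA, S100b had 37, 69, 17 and 0 counts in Emb knockdown and 2, 0, 6 and 3 in WT, and no longer passed the filter.

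Gfap, the intermediate filament protein of astrocytes and of part of the enteric glia, was the marker of highest level in every WT library. Gfap (ENSMUSG00000020932, chromosome 11, 102887336 to 102900912, minus strand) had 260.5, 129.9, 103 and 93.4 CPM in Emb knockdown replicates 1 to 4 and 125, 79.3, 70.7 and 54.8 CPM in WT replicates 1 to 4. Emb knockdown replicates 1 and 2 lay above every WT library, and replicates 3 and 4 lay between WT replicates 1 and 2. The means were 147 ± 77.4 CPM in Emb knockdown and 82.4 ± 30.0 CPM in WT (SD, n = 4 each). The log2 fold change of Gfap was 0.83 ± 0.65 (SE; 95% interval -0.59 to 2.26; edgeR adjusted p = 0.603). It was 0.41 without Emb knockdown replicate 1 and 0.04 with library totals in place of TMM.

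Entpd2, the cell-surface enzyme that enteric glia use to split extracellular ATP, had the widest range of the 7. Entpd2 (ENSMUSG00000015085, chromosome 2, 25395874 to 25401321, plus strand) had 949, 92.8, 81.1 and 20.05 CPM in Emb knockdown replicates 1 to 4 and 47.6, 5.75, 19.0 and 0 CPM in WT replicates 1 to 4. Emb knockdown replicates 1, 2 and 3 lay above every WT library, and Emb knockdown replicate 4 lay below WT replicate 1. Emb knockdown replicate 1 alone held 80.0% of the group's counts of Entpd2. For Entpd2 the fitted log2 difference was 3.97 ± 1.47 (SE), with a 95% interval of 0.75 to 7.20 (unadjusted p = 0.0201; edgeR adjusted p = 0.314), and 1.85 ± 1.08 without Emb knockdown replicate 1 (adjusted p = 0.549). Entpd2 shares 612 exonic bases with Npdc1 on the same strand, so reads there could have been split or dropped. Npdc1 had 12.1 ± 10.2 CPM in Emb knockdown and 10.7 ± 9.96 CPM in WT (SD, n = 4 each).

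Cdh19, a cadherin of the Schwann cell lineage, was likewise led by 1 library, but by another one. Cdh19 (ENSMUSG00000047216, chromosome 1, 110888326 to 110977584, minus strand) had 13.99, 43.5, 276 and 47.0 CPM in Emb knockdown replicates 1 to 4 and 16.7, 3.45, 6.09 and 29.5 CPM in WT replicates 1 to 4. Emb knockdown replicates 2, 3 and 4 lay above every WT library, and replicate 1 lay below WT replicate 1. The log2 fold change of Cdh19 was 2.78 ± 1.02 (SE; 95% interval 0.55 to 5.01; unadjusted p = 0.0190; edgeR adjusted p = 0.312). Without Emb knockdown replicate 3, which held 74.2% of the group's counts of Cdh19, it was 1.38 ± 0.81 (adjusted p = 0.479).

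By edgeR's quasi-likelihood test, 0 of the 6 tested markers passed an adjusted p of 0.05, as did 0.0% of all 11353 genes. At an unadjusted p under 0.05, 3 markers (S100b, Entpd2 and Cdh19) were higher in Emb knockdown, against 8.64% of all genes in that direction. The DESeq2 Wald test called these same 3 at adjusted p of 0.0249 for S100b, 0.0146 for Entpd2 and 0.0323 for Cdh19, with 5.83% of 8315 genes called higher. EdgeR without the filter on low counts also called these 3 (adjusted p = 0.00383 for S100b, 0.00209 for Entpd2 and 0.0473 for Cdh19), with 1.49% of 48530 genes called higher, and limma voom called none of the 6. Groups that did not overlap were found for none of the 7 markers, against 4.03% of tested genes that were higher in every Emb knockdown library. The calls by DESeq2 and by edgeR without the filter rest on markers of which 1 library held 53.0% (S100b), 80.0% (Entpd2) and 74.2% (Cdh19) of the Emb knockdown counts. With 1 library left out, edgeR's log2 fold change was 3.18 to 4.60 for S100b, 1.85 to 5.16 for Entpd2 and 1.38 to 3.49 for Cdh19. None of these fits called any of the 3. S100b thus moved less than the other markers, but it had 0 counts in Emb knockdown replicate 4 and few in WT.

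**Figure D2:**
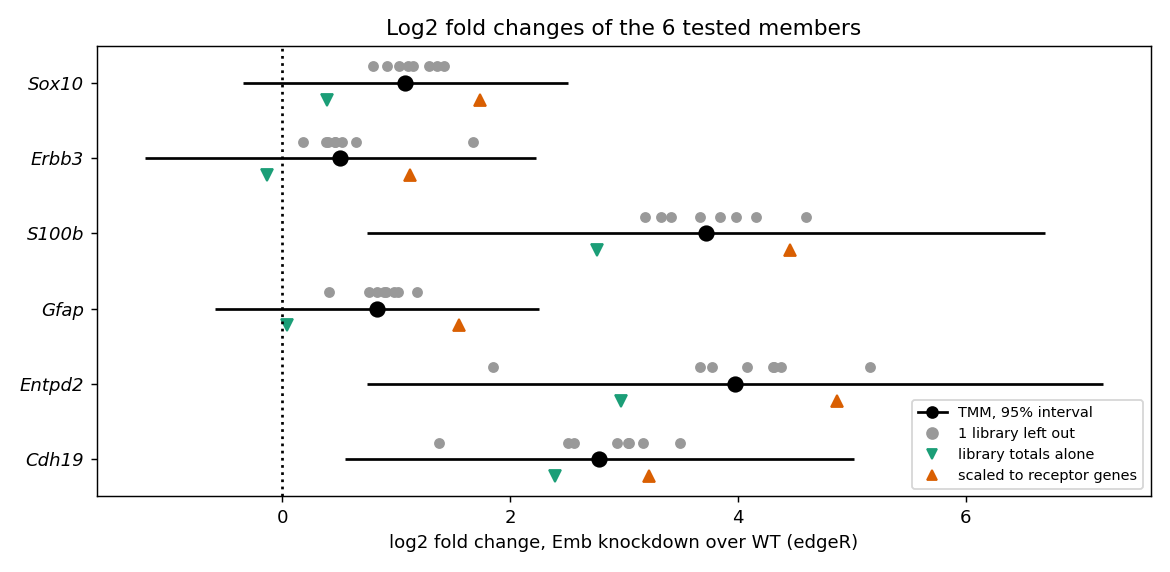
Log2 fold changes of Emb knockdown over WT for the 6 tested markers, with black points and lines for the TMM-scaled edgeR fit and its 95% interval, grey points for fits with 1 library left out, and triangles for other scalings. Intervals of S100b, Entpd2 and Cdh19 lie above 0 before adjustment, the scaling shifts all 6 markers together, and Erbb3 crosses 0 at -0.14 with library totals alone.

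The scaling set the size of the fitted differences, so each was also read against the median of all genes. That median log2 fold change was 0.04 with TMM, -0.67 with library totals alone and 0.65 when libraries were scaled to the receptor genes. Relative to it, Gfap stood at 0.79, 0.71 and 0.91 under the 3 scalings, Sox10 at 1.04, 1.07 and 1.09, and Erbb3 at 0.47, 0.53 and 0.47. The same differences were 3.68, 3.43 and 3.81 for S100b, 3.94, 3.64 and 4.22 for Entpd2, and 2.74, 3.06 and 2.57 for Cdh19. A scaling moves all genes nearly alike, so these differences are close to each other by construction. Of the 6, all but Gfap needed the Emb knockdown libraries to pass the filter, so their place above the median carries no weight.

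Which marker led differed between libraries. In WT, Gfap was the leading marker in 4 of 4 libraries, with 41.1% to 64.1% of the summed counts of the 7. In Emb knockdown replicate 1 Entpd2 led with 1425 of 2073 counts (68.7%, exact 95% Clopper-Pearson interval 66.7% to 70.7%). In Emb knockdown replicate 3 Cdh19 led with 511 of 963 counts (53.1%, interval 49.9% to 56.3%). Gfap led in Emb knockdown replicate 2 with 29.1% (interval 26.1% to 32.3%) and in replicate 4 with 41.3% (interval 36.1% to 46.5%). These intervals too cover counting error of amplified reads only. Gfap and Entpd2 ordered the 8 libraries nearly alike, with Emb knockdown replicate 1 highest, Emb knockdown replicate 2 next and WT replicate 4 lowest for both. Other markers took other orders: S100b was highest in Emb knockdown replicate 2 and at 0 in replicate 4, and Cdh19 in Emb knockdown replicate 1, the library with the most Entpd2, was lower than in WT replicates 1 and 4.

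Summed over the 7 markers, the level was 1381, 446, 520 and 226 CPM in Emb knockdown replicates 1 to 4 and 225, 163, 110 and 134 CPM in WT replicates 1 to 4. The lowest Emb knockdown library and the highest WT library were thus nearly equal. With Entpd2 left out of the sum, the means were 358 ± 108 CPM in Emb knockdown and 140.0 ± 37.1 CPM in WT (SD, n = 4 each). The 7 markers together made up 0.0711% ± 0.0440 of the counts outside ribosomal RNA in Emb knockdown and 0.0192% ± 0.00416 in WT. In sorted pools of cells, a change in the number of glial cells and a change in RNA per glial cell cannot be told apart.

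**Figure D3:**
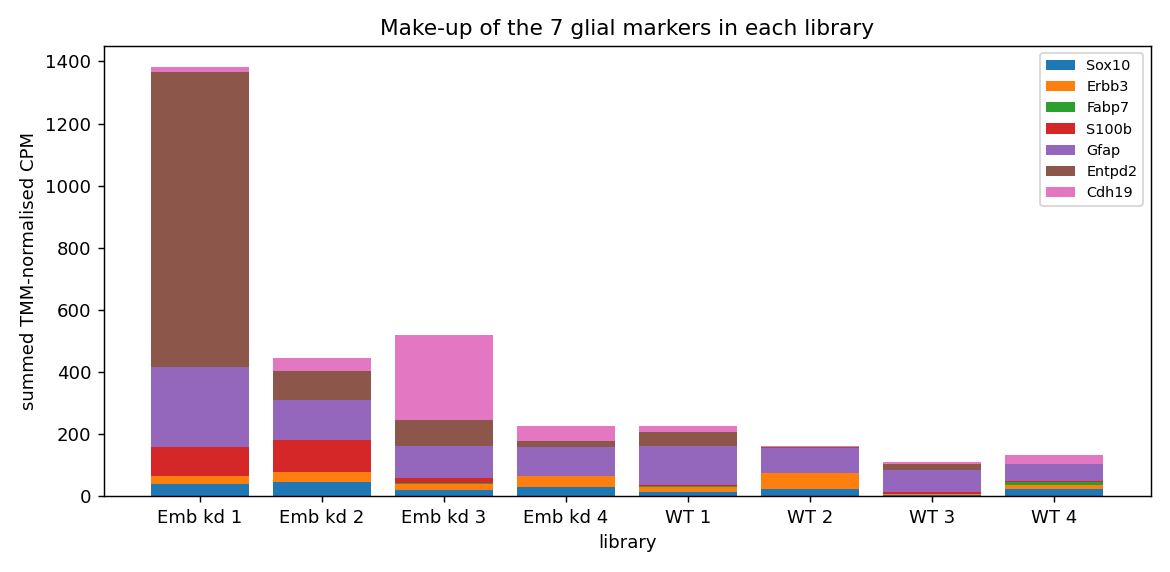
Stacked bars give the TMM-normalised CPM of the 7 markers in each library, Emb knockdown on the left and WT on the right. The tallest bar, Emb knockdown replicate 1 at 1381 CPM, is mostly Entpd2, that of replicate 3 is mostly Cdh19, and Emb knockdown replicate 4 at 226 CPM matches WT replicate 1 at 225 CPM.

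To see which markers stood clear of stray reads, each gene's counts per exonic kilobase were set against the counts per kilobase of 1478 olfactory, vomeronasal and trace amine receptor genes, which colon cells are not known to use broadly, within each library. The median protein-coding gene lay at 1.56 ± 0.14 times this background in Emb knockdown and 0.923 ± 0.191 times in WT (SD, n = 4 each). Gfap was clear of it throughout, at 19.7 to 72.8 times in Emb knockdown and 8.58 to 17.3 times in WT. Sox10 lay at 5.14 to 15.5 times in Emb knockdown and 0.809 to 5.17 times in WT. For Erbb3 the ranges were 2.75 to 5.58 times in Emb knockdown and 0.246 to 5.93 times in WT. S100b, at 0 to 72.0 times in Emb knockdown, did not exceed 3.66 times in WT. Entpd2 lay at 8.86 to 526 times in Emb knockdown and 0 to 13.04 times in WT, and Cdh19 at 3.86 to 52.0 times in Emb knockdown and 0.544 to 4.56 times in WT. Fabp7 lay at 0 to 0.697 times in Emb knockdown and 0 to 5.20 times in WT, and in WT replicate 4, with its 7 counts, it stood close to Sox10 and Cdh19. Of 28 values (7 markers in 4 libraries), 5 lay below background in Emb knockdown and 8 in WT. In WT, then, Gfap alone stood above 5 times the background in every library. In Emb knockdown Gfap, Sox10 and Entpd2 did.

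**Figure D4:**
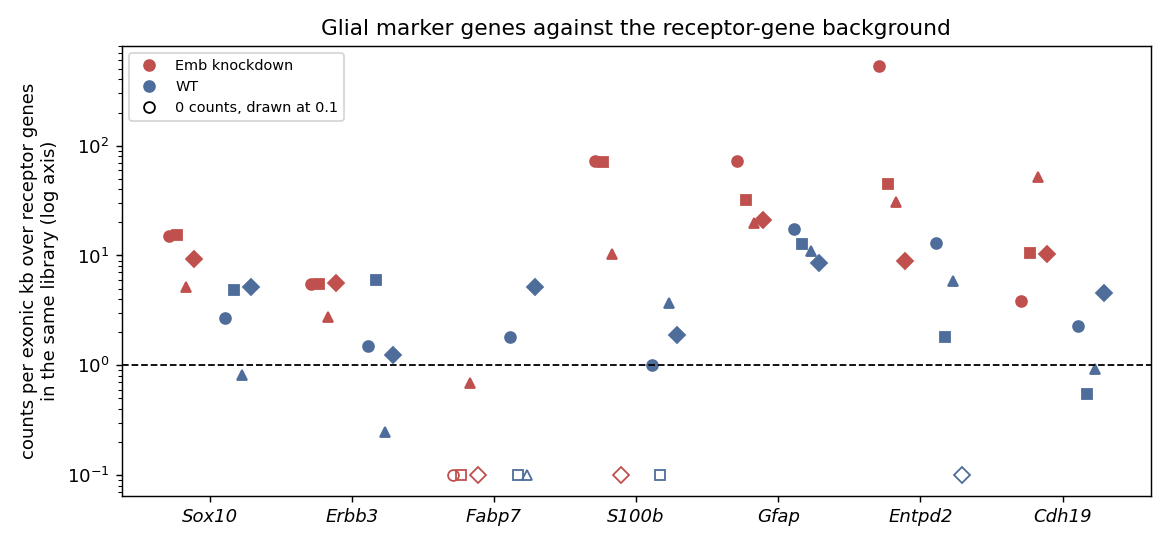
Counts per exonic kilobase of each marker, as a multiple of the receptor-gene value of its own library, on a log axis, with Emb knockdown left of WT for each gene, a marker shape per replicate as in the plot of levels by library, and open symbols for libraries with 0 counts, drawn at 0.1. Gfap stays above the dashed line at 1 in all 8 libraries, at 8.58 times or more, and each of the other 6 has at least 1 WT library below it.

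Per exonic kilobase the order of the marker means differed between the genotypes, but the highest marker also differed between the Emb knockdown libraries. It was Entpd2 in Emb knockdown replicate 1, S100b in replicate 2, Cdh19 in replicate 3 and Gfap in replicate 4. Gfap was highest in every WT library. By mean, Entpd2 was highest in Emb knockdown at 134 ± 208 CPM per kilobase, followed by S100b at 35.7 ± 34.4, Gfap at 34.8 ± 18.3, Cdh19 at 22.2 ± 28.4 and Sox10 at 10.96 ± 3.70 (SD, n = 4 each). These 5 overlapped with their neighbours in the order. Erbb3 at 4.82 ± 1.08 CPM per kilobase lay below every Sox10 value in Emb knockdown, and Fabp7 at 0.216 ± 0.432 lay below every Erbb3 value. In WT Gfap was highest at 19.5 ± 7.12 CPM per kilobase, ahead of Entpd2 at 8.50 ± 9.97 and Sox10 at 5.22 ± 2.98. Erbb3, Cdh19, Fabp7 and S100b followed at 3.40 ± 3.71, 3.26 ± 2.77, 2.74 ± 3.72 and 2.55 ± 2.37 CPM per kilobase. Each pair of neighbours in the WT order overlapped.

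A wider list held 42 further genes of enteric glia and Schwann cells. Of the 35 tested genes of that list, 0 passed the adjusted p, 9 were higher and 1 lower (Egfr) at an unadjusted p under 0.05, against 8.64% higher and 4.64% lower of all genes. Of these 35 genes, 23 lay above 0 and 12 below. Their median log2 fold change was 0.89, against 0.04 over all genes tested. The macrophage and fibroblast lists described below had medians of 1.41 and 1.04. Summed over its 42 genes, the wider glial list had 25430 to 35412 CPM in Emb knockdown and 21056 to 56711 CPM in WT. The lowest p belonged to Apoe, the lipid carrier of glia and macrophages, at 1376, 935, 775 and 236 CPM in Emb knockdown replicates 1 to 4 and 21.9, 57.5, 10.7 and 16.9 CPM in WT (log2 fold change 4.95 ± 0.93, SE; edgeR adjusted p = 0.186). The intermediate filament gene Vim (4.45 ± 1.06), the integrin subunit Itgb8 (2.41 ± 0.71) and the connexin of Schwann cells Gjc3 (2.26 ± 0.80) came next, with adjusted p of 0.275, 0.295 and 0.311. The groups of these 4 genes did not overlap. In the whole list 8 of the 35 tested genes were higher without overlap, against 4.03% of all tested genes. The DESeq2 Wald test, run on the same 35 genes, called 7 higher (Apoe, Vim, Itgb8, Gjc3, Fxyd1, Scn7a and Sfrp5) and 0 lower. It called 5.83% of 8315 genes higher. EdgeR without the filter called 3 higher (Apoe, Vim and Fxyd1), with 1.49% of 48530 genes called higher, and limma voom called 0. Over all 42 genes, tested or not, the median gene lay at 2.20 to 6.93 times the receptor-gene background in Emb knockdown and at 1.94 to 2.81 times in WT.

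Genes that work with the markers were read from lists of their pathways and families, and by edgeR 0 passed the adjusted p in any of them. DESeq2 called Alpl lower, as 2.38% of all genes, and Vim, S100a10 and S100a16 higher, as 5.83% of all genes. It called no other gene of the 5 lists described next. EdgeR without the filter called Vim and S100a9 higher there, as 1.49% of all genes. In the neuregulin and ERBB list without Erbb3, 8 of 22 tested genes lay above 0 and 14 below, with a median of -0.26. Egfr, the receptor for epidermal growth factor, had 21.5 ± 4.90 CPM in Emb knockdown and 55.3 ± 32.0 CPM in WT (log2 fold change -1.36 ± 0.61, edgeR adjusted p = 0.367). Erbb2, the signalling partner of Erbb3, had 43.9 ± 37.3 CPM in Emb knockdown and 15.3 ± 10.9 CPM in WT (1.52 ± 0.76, adjusted p = 0.411). In the list of purine hydrolysis and receptors without Entpd2, 9 of 18 lay above 0 and 9 below, and the phosphatase Alpl had 5.10 ± 2.35 CPM in Emb knockdown and 19.4 ± 11.3 CPM in WT (-1.91 ± 0.70, adjusted p = 0.312).

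Among SOX and neural crest factors without Sox10, 5 of 15 lay above 0, with a median of -0.27. Ednrb, the endothelin receptor of the enteric lineage, had 21.3 ± 10.4 CPM in Emb knockdown and 8.41 ± 2.97 CPM in WT (log2 fold change 1.33 ± 0.62, edgeR adjusted p = 0.378). It alone of the 15 was higher without overlap of the groups, as were 4.03% of all tested genes. Sox2, which enteric glia share with their precursors, had 4.98 ± 3.41 CPM in Emb knockdown and 13.1 ± 8.81 CPM in WT (-1.38 ± 0.78, adjusted p = 0.461). Intermediate filaments without Gfap had 4 of 8 above 0, and Vim led them. Of 24 genes of the S100 and fatty acid binding families besides S100b and Fabp7, only 5 could be tested, and all 5 lay above 0. Among them S100a16 had 227 ± 183 CPM in Emb knockdown and 47.8 ± 27.8 CPM in WT (2.25 ± 0.79, adjusted p = 0.311), and S100a10 had 149 ± 93.4 CPM in Emb knockdown and 28.2 ± 19.4 CPM in WT (2.40 ± 0.83, adjusted p = 0.311).

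Markers of other cells were present beside the glial ones. The macrophage list of 15 genes summed to 5104 to 7933 CPM in Emb knockdown and 3161 to 9190 CPM in WT, and its median gene lay at 20.7 to 78.9 times the receptor-gene background in Emb knockdown and at 4.72 to 8.96 times in WT. Of its 13 tested genes 7 were higher and 1 lower (Itgam) at an unadjusted p under 0.05, against 8.64% higher and 4.64% lower of all genes, with the mannose receptor Mrc1 at 391 ± 220 CPM in Emb knockdown and 42.9 ± 19.5 CPM in WT. Itgam, which encodes the integrin CD11b, had 393 ± 232 CPM in Emb knockdown and 3800 ± 1990 CPM in WT (SD, n = 4 each; edgeR adjusted p = 0.275). DESeq2 called 5 of the macrophage genes higher and 1 lower, against 5.83% higher and 2.38% lower of all genes. EdgeR without the filter called 4 of them higher and 1 lower, against 1.49% higher and 0.381% lower of all genes. None of the 15 was at 0 counts in either genotype. The median of the 7 glial markers lay at 8.86 to 15.5 times the background in Emb knockdown and at 0.922 to 4.56 times in WT. Both lists thus stood higher against the background in every Emb knockdown library than in any WT library, but so did the median protein-coding gene, at 1.42 to 1.75 times in Emb knockdown and 0.709 to 1.16 times in WT. The median gene of the lymphocyte list did as well, at 1.48 to 3.18 times in Emb knockdown and 0.244 to 1.22 times in WT, and so did those of the purine and type II cadherin lists. The part of these cells, of the ribosomal RNA share and of depth in the values of the glial markers was not tested. The neuron list had 5 of 10 tested genes above 0 (median -0.04), and summed to 458 to 793 CPM in Emb knockdown and 533 to 853 CPM in WT. Of its genes, edgeR without the filter called Uchl1 higher, as 1.49% of all genes. Uchl1 had 0 counts in Emb knockdown replicate 4, and 1 library held 64.8% of its Emb knockdown counts. Elavl3 and Syt1 were lower in every Emb knockdown library than in any WT library, as were 482 of all 11353 genes.

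The genes whose log2 CPM profile over the 8 libraries lay closest to those of the 2 most abundant markers were found by the root mean square difference after centring. For Entpd2 these were Ralgds at 0.84, Bcl2l12 at 1.01 and Mrpl44 at 1.02 log2 units, against a median of 2.703 over 9543 genes. For Gfap they were Gphn at 0.25, Fcgr2b at 0.27 and the pseudogene Vmn2r-ps94 at 0.29 log2 units, against a median of 1.15. A gene at the same level in all 8 libraries would lie at 2.58 log2 units from Entpd2 and at 0.63 from Gfap. None of the 6 genes found closest is another of the 7 markers.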

How the data were processed

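The deposited file is a single table of raw counts for 8 libraries, not normalized by the authors. Per the submitters' processing notes, cutadapt (adapter trimming) and build mm10 were used; the aligner, the counter, its strand setting and the annotation are not given there, and counting without strand could mix antisense reads. Locations and exonic lengths came from GENCODE M21 on GRCm38 (52133 of 55414 identifiers matched).

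Counts were filtered with filterByExpr defaults (minimum count 10, minimum total 15), scaled with TMM and fitted with edgeR 4.0.16 in R 4.3.3 (robust quasi-likelihood, genotype as the only term). Adjusted p-values are Benjamini-Hochberg values over the 11353 genes tested. SEs were derived from the fold change and the F statistic. Log2 CPM used a prior count of 2. The fit was also run on simulated counts, and the outcome is not reported here. Alternatives were DESeq2 1.42.0, limma 3.58.1 voom, other scalings, no filter, equal depth, a replicate block and each library left out. The members and lists were chosen with earlier results of these data known. All 7 markers, Emb, and up to 4 genes of each list by smallest p were named; likeness used genes with mean log2 CPM of at least 3. Gene symbols came from the table. The receptor background is uneven across genes and was taken over from that earlier work. Values of some single genes of the wider glial list are not reported here; its counts and medians include them.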

Additional observations from a re-analysis of the deposited data

Results flagged for a closer look

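Single libraries stood far from the other 3 of their group in 3 of 20 sets of values checked. The cut-off flags about 1 in 20 sets of normally distributed values, a rate that need not hold for unlogged CPM. The number of flags is therefore a description only. In Emb knockdown, Entpd2 reached 949 CPM in replicate 1, against 20.05 to 92.8 CPM in the other libraries, and Cdh19 reached 276 CPM in replicate 3, against 13.99 to 47.0 CPM. Fabp7 was at 1.08 CPM in Emb knockdown replicate 3 and at 0 in the other 3, a difference of 2 counts. A set with a single library above 0 is flagged whatever the value. Emb knockdown replicate 1 also held 99.9 CPM of Cd24a, which encodes the sort antigen CD24, against 4.77 to 12.4 CPM in the other Emb knockdown libraries.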

How the results depend on the processing

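Across 17 alternatives, the 6 tested markers kept their direction and stayed on the same side of the adjusted p threshold in 94 of 101 fits (S100b could not be fitted at equal depth). Of the others, 6 were the calls of S100b, Entpd2 and Cdh19 by DESeq2 and without a filter (3 markers called each, against 0), and 1 was Erbb3, at -0.14 with library totals alone. Genes called over the whole table numbered 683 by DESeq2, 910 without a filter and 2 with library totals alone, against 0. With 1 library left out, 0 genes and 0 markers were called, and the summed level of the 7 markers differed by 262 to 657 CPM, against 485 CPM with all libraries. With the replicate number as a block, 0 genes and 0 markers were called. Same-numbered libraries had correlations of 0.011 to 0.034 between their deviations. These are small but all above 0, so they do not settle whether the numbers pair the libraries. Of the 8 libraries, 5 correlated best with their own number. WT depth limits S100b, Fabp7 and Entpd2 most, since a library there without a count still allows 2.28 to 4.22 CPM.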

Other observations

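Of 8 tested type II cadherins besides Cdh19, 5 had a log2 fold change above 0 and 3 below, with a median of 0.04 and 0 past the adjusted p (edgeR). At an unadjusted p under 0.05 there were also 0 of them. Of all 12 listed besides Cdh19, tested or not, edgeR without the filter called Cdh12 and Cdh8 higher, with 1.49% of 48530 genes called higher. Among those tested, Cdh18 had 5.83 ± 1.98 CPM in Emb knockdown and 13.7 ± 9.19 CPM in WT (SD, n = 4 each). Btc, a ligand of the ERBB family, had 13.6 ± 1.57 CPM in Emb knockdown and 27.9 ± 7.12 CPM in WT (log2 fold change -1.03 ± 0.53, SE; edgeR adjusted p = 0.418). Sox9, a SOX factor close to Sox10, had 412 CPM in WT replicate 1 against 4.60 to 19.7 CPM in the other WT libraries and 5.83 to 34.5 CPM in Emb knockdown. The median genes of the fibroblast, smooth muscle, endothelial, epithelial and lymphocyte lists had log2 fold changes of 1.04, -0.26, -0.30, -0.21 and 0.22, with 0 of their genes past the adjusted p by edgeR, with or without the filter. DESeq2 called Col1a2 of the fibroblast list higher and Chga of the epithelial list lower, against 5.83% higher and 2.38% lower of all genes.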
